A study of Mus musculus with 4 samples.

Results

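The deposited list holds 39231 regions where DNA signal was lower in cells of tamoxifen-treated mice than in cells of oil-treated mice. That DNA is read here as captured, methylated DNA. Of these regions, 2155 lay in long noncoding RNA (lncRNA) genes and away from protein-coding genes. They were found by position alone. A region was taken when it lay on chromosomes 1 to 19 (38581 regions), its midpoint fell inside a RefSeq lncRNA gene, and that midpoint was more than 2000 bp from every protein-coding gene body. The 2155 regions were 5.59% of those on these chromosomes (exact 95% limits 5.36% to 5.82%, counting error only) and lay in 1631 lncRNA genes.

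The study isolated satellite cells, the stem cells of skeletal muscle, from hindlimb muscles of 9-week-old mice and cultured them for 3 days on Matrigel. Mice of the tamoxifen group had received intraperitoneal tamoxifen (150 µl of 20 mg/ml on 5 consecutive days) to induce Cre recombination, and the series' design text calls them Uhrf1-deficient in satellite cells. Controls received oil. The Cre driver, the floxed allele and the number of animals behind a library are not given in the sources used here. Sheared genomic DNA was separated with an MBD2-based kit into methylated and non-methylated fragments, which gave 4 libraries, 1 for each treatment and DNA part. The region list compares 1 oil with 1 tamoxifen library (19534328 and 25614791 tags after duplicate removal) and is read here as a comparison of the methylated part, which its header does not state. With 1 library per group there is no replicate error, so no test was made. Deletion of Uhrf1 cannot be told apart from tamoxifen itself, the animals or the capture.

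LncRNAs are transcripts that encode no protein. Some act in the nucleus, as scaffolds or by silencing neighbouring genes, some are precursors of small RNAs, and for most no function is known. Cytosine methylation in mammals sits mostly at CpG dinucleotides, and Uhrf1 brings the maintenance methyltransferase Dnmt1 to newly copied DNA so that the pattern is kept through cell division. CpG-rich promoters are usually unmethylated, whereas gene bodies and CpG-poor DNA usually carry methylation.

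Each region is described by its tags, fold, percentage kept and limits. Oil and tamoxifen tags are unscaled counts of extended tags over the region's summit, and the tamoxifen count was recovered from the deposited values. The fold is the authors' ratio of oil to tamoxifen after scaling to equal library size, with 1 added to both. The percentage kept is the scaled tamoxifen signal relative to oil, and the limits beside a fold are exact 95% limits on the scaled tag ratio, which cover counting error only and have nothing added. Coordinates are mm10.

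The sequences at lncRNA starts show only part of the listed DNA, since 78 of the 2155 regions (3.62%) overlapped a lncRNA promoter window. CpG dinucleotides outside these windows were not counted, and a region can be longer than the stretch shown. Promoter windows of RefSeq (GRCm38.p6, the assembly of mm10), which run from 250 bases before to 50 bases after a transcript's start, were available for 6903 of 9125 lncRNA genes with sequence more than 2000 bp from protein-coding genes (75.6%). The stretches below are those shared by a promoter window and a listed region, written 5′ to 3′ on the gene's strand, with every CpG in capitals. Gm11691, Gm35466, Gm34639 and Gm31373 were chosen for their high folds among stretches of 100 bases or more in the 2155 regions. A window can belong to a start inside the gene, and the region midpoints of all 5 genes shown lay inside the named gene, 2.73 kb from its outer end in Gm34639 and 8.18 kb in Gm34931. The 4 are shown together with Gm34931, which has the most CpG dinucleotides of the stretches with a fold above 5.
Gm11691, chr11:114251682-114251892, plus strand: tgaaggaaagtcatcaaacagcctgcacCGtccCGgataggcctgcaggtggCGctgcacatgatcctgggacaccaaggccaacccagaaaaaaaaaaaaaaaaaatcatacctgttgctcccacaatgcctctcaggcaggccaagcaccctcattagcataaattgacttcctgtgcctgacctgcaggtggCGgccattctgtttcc
Gm35466, chr8:122823526-122823806, plus strand: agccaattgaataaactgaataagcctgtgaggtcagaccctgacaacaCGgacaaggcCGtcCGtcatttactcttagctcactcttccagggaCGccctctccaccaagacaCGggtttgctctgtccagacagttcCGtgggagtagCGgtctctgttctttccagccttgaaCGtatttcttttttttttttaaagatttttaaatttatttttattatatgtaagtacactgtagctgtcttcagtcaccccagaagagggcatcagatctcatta
Gm34639, chr13:28895965-28896069, minus strand: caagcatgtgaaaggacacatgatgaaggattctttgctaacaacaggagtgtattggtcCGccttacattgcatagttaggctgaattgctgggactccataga
Gm31373, chr1:190992567-190992814, plus strand: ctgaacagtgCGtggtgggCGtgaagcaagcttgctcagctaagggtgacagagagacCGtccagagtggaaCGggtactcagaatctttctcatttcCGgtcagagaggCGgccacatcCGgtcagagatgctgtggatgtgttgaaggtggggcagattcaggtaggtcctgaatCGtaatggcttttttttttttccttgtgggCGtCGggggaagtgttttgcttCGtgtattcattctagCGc
Gm34931, chr5:114699469-114699767, minus strand: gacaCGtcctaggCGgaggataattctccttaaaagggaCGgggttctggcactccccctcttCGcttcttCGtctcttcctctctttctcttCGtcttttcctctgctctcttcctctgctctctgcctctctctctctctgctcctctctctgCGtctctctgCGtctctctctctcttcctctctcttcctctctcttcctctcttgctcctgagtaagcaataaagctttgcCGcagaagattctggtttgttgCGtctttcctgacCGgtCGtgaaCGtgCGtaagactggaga
The window of E130102H24Rik, the host transcript of the microRNA miR-101a, is shown as 1 of the CpG-richest without a region. It carried 47 CpG dinucleotides in 300 bases. The highest count of any lncRNA window was 49.
E130102H24Rik, chr4:101356199-101356498, minus strand: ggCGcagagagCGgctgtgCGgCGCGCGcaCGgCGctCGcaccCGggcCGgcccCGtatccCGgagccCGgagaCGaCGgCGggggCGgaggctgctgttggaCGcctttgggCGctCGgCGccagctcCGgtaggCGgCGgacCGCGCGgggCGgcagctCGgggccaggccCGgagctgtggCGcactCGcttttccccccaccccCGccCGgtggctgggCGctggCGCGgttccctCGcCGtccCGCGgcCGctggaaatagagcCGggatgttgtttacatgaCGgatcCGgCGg

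The Gm11691 stretch held 4 CpG dinucleotides in 211 bases and belonged to a region covered by 51 tags in oil and 5 in tamoxifen (fold 10.8, limits 5.37 to 42.9). At Gm35466, 8 CpG dinucleotides lay in 281 bases, and the tags went from 69 in oil to 8 in tamoxifen (fold 9.86, limits 5.43 to 27.2). Gm34639 had 1 CpG in its 105 bases, and its region went from 33 tags in oil to 4 in tamoxifen (fold 8.39, limits 3.85 to 42.0). The Gm31373 stretch was denser, with 12 CpG dinucleotides in 248 bases, 89 oil tags and 13 tamoxifen tags (fold 8.25, limits 4.99 to 17.5). Gm34931 had 14 in 299 bases, 52 oil tags and 12 tamoxifen tags (fold 5.22, limits 2.99 to 11.7).

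The share of windows with a region differed with CpG count. Of 6908 lncRNA promoter windows more than 2000 bp from protein-coding genes, which carried a median of 3 CpG dinucleotides, 152 overlapped a listed region by 1 bp or more, 2.2% in all. The share was 0 of 576 for windows without a CpG (3 counts would be 0.521%, and the exact upper limit is 0.638%), 0.281% (6 of 2132) at 1 to 2, and 1.04% (25 of 2399) at 3 to 5. It was 6.26% (84 of 1342, exact 95% limits 5.02% to 7.69%) at 6 to 10 and 10.4% (29 of 280, limits 7.05% to 14.5%) at 11 to 15. At 16 to 20 it was 8.99% (8 of 89, limits 3.96% to 16.9%), and of the 90 windows with 21 or more none overlapped a region (3 counts would be 3.33%, and the exact upper limit is 4.02%). CG was read on 1 strand, since it is its own reverse complement, and 91.7% of these windows held at least 1 CG, so that holding a CG does not single out the overlapped windows. Overlapped windows had a median of 8.5 CpG dinucleotides and a highest count of 19, against 49 in the richest window of all.

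Promoter windows of protein-coding genes served as a comparison, and there the share was lower in the middle CpG classes. It was 2.28% (58 of 2544, limits 1.74% to 2.94%) at 6 to 10 CpG dinucleotides and 1.81% (36 of 1994, limits 1.27% to 2.49%) at 11 to 15. The lncRNA and protein-coding limits do not overlap in these classes, although windows of 1 gene can share bases and are not independent. At 3 to 5 they do, with 0.861% of protein-coding windows overlapped (24 of 2789). Over all classes 0.717% of 20085 protein-coding windows overlapped a region, but 6989 of these windows had 21 or more CpG dinucleotides, and only 10 of those did. The 140 distinct regions at lncRNA windows had a median fold of 4.33. Of these, 78 belong to the 2155, in some cases because their midpoint lies in another lncRNA gene that overlaps the window. MBD2 capture itself depends on CpG density, and its part in these shares was not tested.

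**Figure D1:**
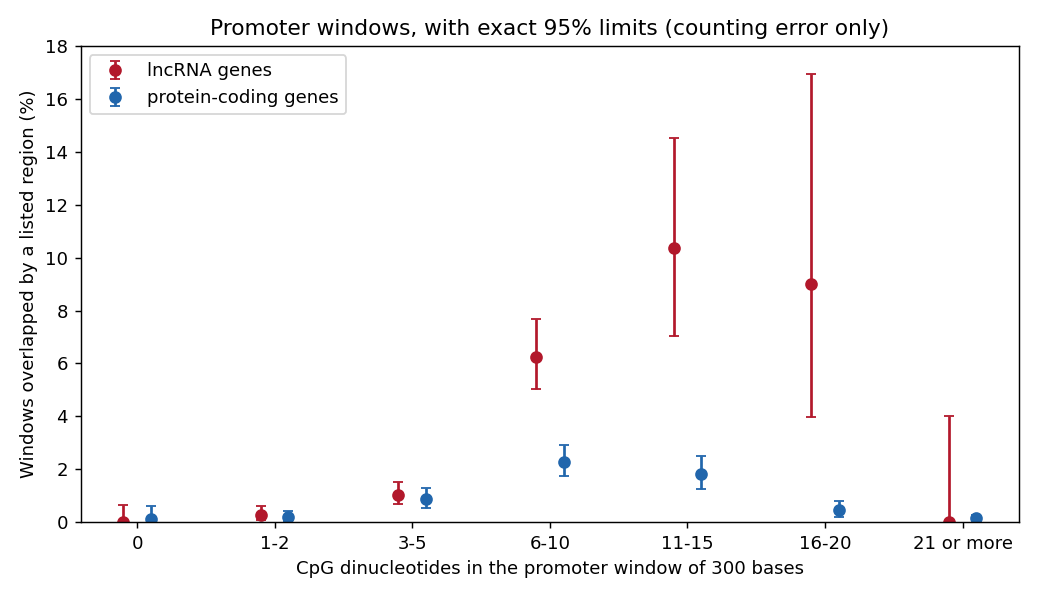
Percentage of RefSeq promoter windows of 300 bases that overlap a listed region, against the number of CpG dinucleotides in the window, for lncRNA genes (red, windows more than 2000 bp from protein-coding genes) and protein-coding genes (blue). Bars are exact 95% limits for counting error only. The lncRNA share reaches 10.4% at 11 to 15 CpG dinucleotides and is 0 of 90 windows at 21 or more, while the protein-coding share stays at or below 2.28%.

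As a whole, the 2155 regions had 15 to 381 oil tags. Median tags were 52 in oil (quartiles 37 and 81) and 14 in tamoxifen (8 and 23). Folds had their quartiles at 3.70 and 5.91 around a median of 4.63. The scaled tamoxifen signal stood at 20.0% of oil in the median region, with quartiles at 15.3% and 25.4%. Lengths ran from 201 to 1853 bp (median 256 bp) and added up to 629889 bp. The fold was 4 or more in 1448 of them (67.2%, exact limits 65.2% to 69.2%), beside 66.2% of all regions on these chromosomes. It was 10 or more in 59 (2.74%), beside 2.03% of all regions, and under 2 in 14, beside 245 of all 38581. In 50 regions (2.32%, beside 2.48% of all regions) the fold was set by the genome mean, which the caller uses as its lowest background. Tamoxifen had 2 or fewer tags there.

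In fold and signal these regions resembled the list as a whole. Regions inside protein-coding genes had a median fold of 4.71 and kept 19.6%, and those outside both kinds of gene had 4.41 and 21.2%. The share with a fold of 4 or more was 68.8% and 60.8% in these classes, so the lncRNA regions lay between them. Median folds differed more between ranges of oil tags than between places. The 556 lncRNA regions with 15 to 37 oil tags had a median fold of 5.38, and the 533 with 82 to 381 tags one of 4.27. All regions in the same tag ranges had 5.21 and 4.27. All regions had passed the same q limit, and at few tags that limit is met only at higher folds.

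**Figure D2:**
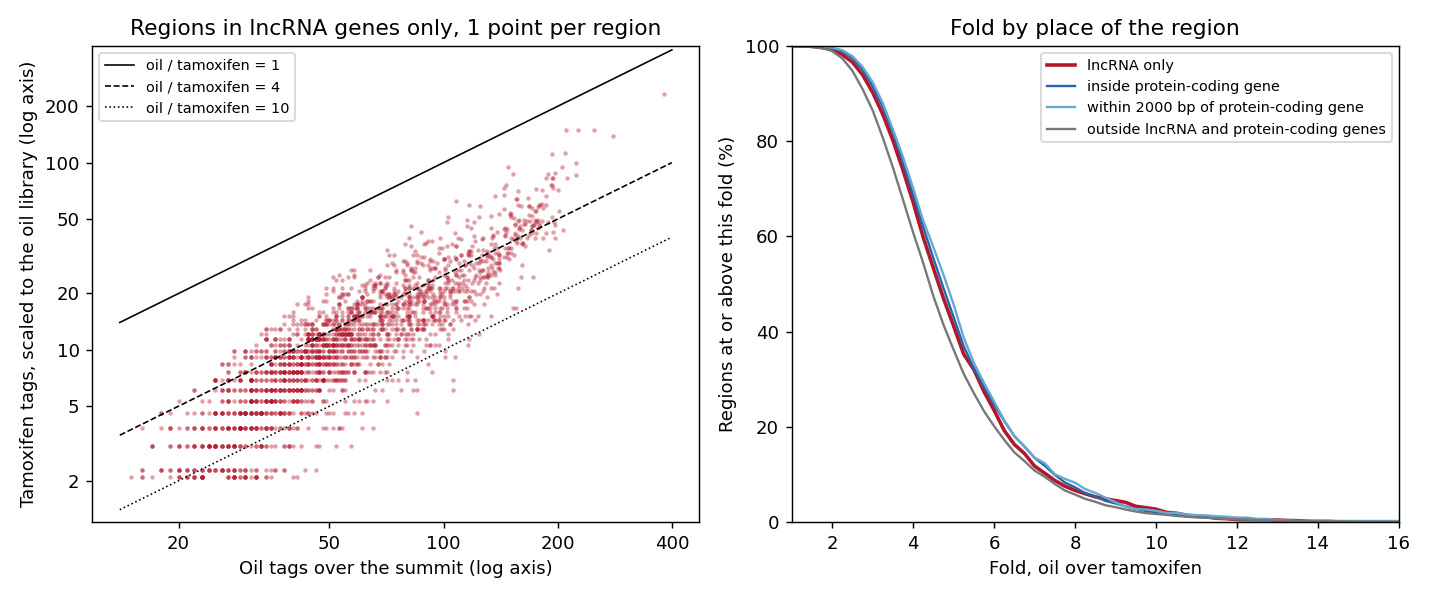
Left, oil tags against scaled tamoxifen tags over the summit (log axes) for each of the 2155 regions in lncRNA genes only, with lines at ratios of 1, 4 and 10. Right, percentage of regions at or above each fold for regions in lncRNA genes only, inside protein-coding genes, within 2000 bp of them and outside both. The median fold was 4.63. The lines on the left are ratios with nothing added, and on that measure the median was 5.01 and 72.8% of regions had 4 or more. On the right, the red curve lies between the blue and grey ones around a fold of 4.

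Pooled over genes of all lengths, regions were sparser in lncRNA genes than in protein-coding genes. LncRNA genes away from protein-coding genes covered 165.5 Mb on chromosomes 1 to 19 and held 13.02 regions per Mb. Protein-coding gene bodies held 23.4 per Mb (23029 regions), the 2000 bp beside them 17.7 (1120 regions), and the remaining sequence 9.99 (12277 regions). By chromosome, the density in lncRNA genes went from 9.13 per Mb on chromosome 3 to 21.7 on chromosome 17. The lncRNA value depended on gene length, with 36.6 per Mb in genes with up to 2 kb of eligible sequence and 8.49 above 50 kb. Protein-coding densities by gene length were not computed. These densities describe the listed regions of 1 pair of libraries.

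The 2000 bp margin mattered little for fold. In all, 3269 regions had their midpoint in a lncRNA gene. Of those, 1003 were also inside a protein-coding gene and 111 within 2000 bp of one. The 59 regions just inside the margin (2001 to 3000 bp) had a median fold of 4.91, and the 55 lncRNA regions just outside it (1001 to 2000 bp) one of 4.87. The median distance to the nearest protein-coding gene was 36.5 kb and the largest 1597 kb. The median fold was 4.796 in the 373 regions within 10 kb and 4.55 in the 239 regions beyond 200 kb, where the median oil tags were 54 and 47. As to other annotated features, 41 regions overlapped a pseudogene, 6 a transcribed pseudogene, 2 a small nuclear RNA gene, 1 a tRNA gene and 1 a microRNA gene. A few genes with symbols of protein families, such as Apol7d, are lncRNA genes in the table.

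By distance from the gene's start, regions were densest in the first 1 kb. In genes whose strand is known, the first 1 kb held 30.3 regions per Mb (170 regions), the next kb 16.2 (88), and sequence more than 50 kb from the start 6.91 (228). Long genes had fewer regions per Mb throughout, so the first 1 kb and the rest were also compared within classes of gene length. Both parts were pooled over the genes of a class. The longest genes weigh more in the rest than in the first 1 kb, so this does not remove the part of gene length. In genes over 20 kb the first 1 kb held 26.5 per Mb (42 regions) and the rest 10.7 (1062). In genes of 20 kb or less the values were 31.9 (128 regions) and 17.9 (536). With each gene cut into 3 equal parts, the density was 13.8, 12.3 and 13.4 per Mb from the first part to the last. There, long genes weigh about alike in each part, and the densities were close to each other. The median fold in the first 1 kb was 4.46, and 4.57 beyond 50 kb. These counts take a region once for each overlapping lncRNA gene, which concerned 95 regions (4.41%).

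**Figure D3:**
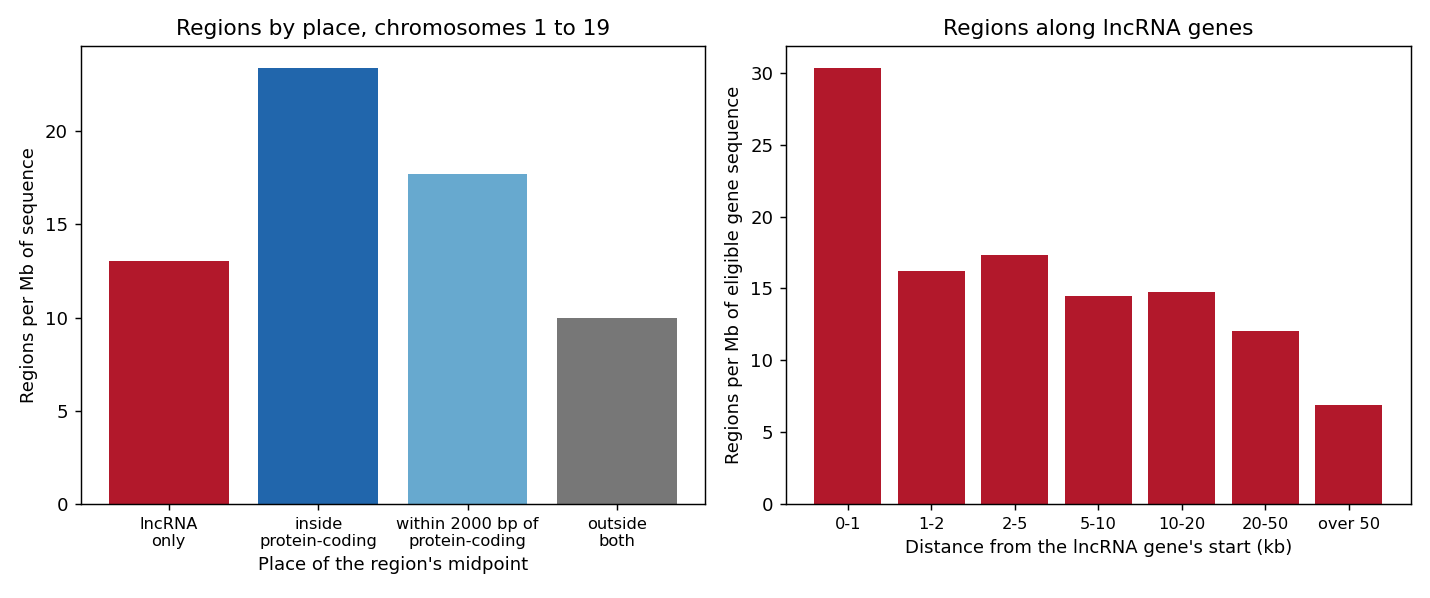
Left, regions per Mb of sequence by place of the midpoint on chromosomes 1 to 19. Right, regions per Mb of eligible lncRNA gene sequence against distance from the gene's start in kb. LncRNA genes held 13.02 per Mb against 23.4 inside protein-coding genes, and within lncRNA genes the first kb stands highest at 30.3.

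Single regions showed far larger differences than the median. The highest fold with a resolved tamoxifen count was in Gm41504, chr16:94711889-94712168, with 85 oil tags and 6 tamoxifen tags (fold 15.4, limits 8.19 to 52.0). It lay 1.88 kb from the start of a gene of 2.88 kb, and tamoxifen kept 5.38% of the oil signal. Next was Gm29260, chr1:41892000-41892343, with 106 and 8 tags (fold 15.1, limits 8.50 to 41.3). That region is deep inside a gene of 196.6 kb and 803.6 kb from Pou3f3, the nearest protein-coding gene, which encodes a neural POU-domain transcription factor. B130024G19Rik, 4.17 kb from the nuclear receptor gene Nr2f2, had 57 and 4 tags at chr7:70370782-70371046 (fold 14.3, limits 6.91 to 70.9). Gm9946 had 46 and 3 tags (fold 14.3, limits 6.46 to 101).

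The other 6 of the 10 highest folds lay 5.21 kb (Gm12992) to 105.2 kb (Gm26747) from the nearest protein-coding gene. The Apol7d region at chr1:71658787-71659099 (65 against 5 tags, fold 13.7, limits 6.94 to 54.3) lay 5.66 kb from Fn1, the fibronectin gene. In A730043L09Rik the region at chr9:62243464-62243801 had 106 and 9 tags (fold 13.6, limits 7.83 to 34.7) and was 0.468 kb from the gene's start. The next were 6030466F02Rik (43 against 3 tags, fold 13.4), Gm34895 (52 against 4, fold 13.1), Gm26747 (61 against 5, fold 12.9) and Gm12992 (85 against 8, fold 12.1). Gm34895 lies 67.5 kb from Dio3, the deiodinase gene at the end of an imprinted domain. Their lower limits, from 6.02 in 6030466F02Rik to 6.76 in Gm12992, exceeded the median tag ratio of all regions, 4.98. As these were chosen for their folds, that is a description. Regions with 2 or fewer tamoxifen tags reached similar folds, with 13.5 at Gm36518 (41 oil tags), 13.2 at Gm35846 (40) and 11.6 at Gm38557 (35).

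At the other end, the regions with most oil tags had low folds. Since at most 1 tag per position was kept, counts in both libraries have an upper bound. Its effect on these folds was not tested. Gm40237 had 381 oil and 306 tamoxifen tags over chr4:118547001-118548853, a fold of 1.63 (limits 1.40 to 1.90). This was also the longest region, at 1853 bp, and it covered the whole gene. Its part in the gene's promoter window is a short sequence repeated in tandem. Gm40504 had 280 and 182 tags (fold 2.01), Gm19689 249 and 195 (fold 1.67), and 5430421F17Rik 224 and 130 (fold 2.25). In the overlapping genes Gm34112 and Gm14249 a region had 226 and 196 tags (fold 1.51). The lowest fold was in 9130204K15Rik, with 210 and 195 tags (1.41, limits 1.16 to 1.72), followed after Gm34112 by 9330111N05Rik with 148 and 124 (1.56). Without scaling for library size, the folds of Gm40237 and 9130204K15Rik were 1.24 and 1.08. Other long regions had larger differences, such as 5730522E02Rik (846 bp, 63 against 14 tags, fold 5.48), 9230112J17Rik (866 bp, 88 against 26, fold 4.27) and Gm51620 (879 bp, 168 against 69, fold 3.15). The region of CJ186046Rik, 3.54 kb from Six2, was 1025 bp long with 87 and 56 tags (fold 2.01).

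Most lncRNA genes carried no region. Of 9125 genes with eligible sequence 1631 carried at least 1, which is 17.9%. One region was found in 1225 genes, 2 in 283, and 5 or more in 24. The share followed gene length. It was 4.16% of genes with up to 2 kb of eligible sequence (48 of 1153), 14.3% at 5 to 10 kb (282 of 1969), 31.8% at 20 to 50 kb (484 of 1521) and 47.3% above 50 kb (348 of 736). Regions per Mb went the other way, from 36.6 in the shortest class to 8.49 in the longest. Annotation class made little difference, with 12.9 regions per Mb in genes with a curated transcript (486 of 2394 genes, 20.3%) and 13.2 in genes with predicted transcripts only (1145 of 6731, 17.0%).

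The gene with most regions was A930011G23Rik, 431.8 kb long on chromosome 5 from 99297244 to 99729060, near Rasgef1b. Its 10 regions had 22 to 101 oil tags, 3 to 44 tamoxifen tags and folds from 2.46 to 9.63. The best covered, chr5:99380757-99381060, had 101 and 13 tags (fold 9.35, limits 5.70 to 19.8), and the highest fold was at chr5:99723843-99724062 (38 and 4 tags, limits 4.49 to 48.1). The weakest of the 10, starting at 99417439, had 84 and 44 tags. Low and high folds thus stood side by side in 1 gene.

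Another 4 genes carried 7 regions each. D6Ertd474e (51.99 kb, near Etnk1) had folds from 2.87 to 7.16, with the highest at chr6:143259317-143259847 (99 against 17 tags). Gm30215 (146.6 kb) ranged from 2.59 to 9.03, the highest with 2 or fewer tamoxifen tags. Gm31340 (153.5 kb, near the glutamate transporter gene Slc1a3) ranged from 2.68 to 8.10. D030068K23Rik (178.4 kb), whose regions lay 118.1 kb or more from the transcription factor gene Zfhx3, ranged from 2.33 to 6.77. Its highest fold likewise had 2 or fewer tamoxifen tags. Its region at chr8:109249312-109250079 (102 against 22 tags, fold 5.79) also covers the promoter window of the overlapping gene 4922502B01Rik. Genes with 6 regions were Gm39261, Gm26885 near Pim1, Gm46036 near Kat6a, Gm41625 near Atl2, and Gm31724.

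The genes with most regions per 100 kb, ranked among genes with 3 or more, were short, which such a ranking favours. Gm39261 had its 6 regions in 14.84 kb of chromosome 8, 40.4 per 100 kb, with folds from 4.28 to 8.43. They lay 0.132 to 9.09 kb from the gene's start, and the highest fold was farthest in (chr8:117767249-117767493, 46 against 6 tags). Gm52861 had 4 regions in 8.97 kb (53.5 per 100 kb of eligible sequence), all with over 100 oil tags and folds from 3.35 to 5.14. Gm42081 (44.9 per 100 kb) spanned folds from 2.09 (57 against 35 tags) to 10.001 (30 against 2 or fewer). Gm50270 (39.4) and Gm30815 (31.5) had 3 regions each, with highest folds of 9.33 and 5.56.  Within 1000 bp of another lay 130 of the 2155 regions (6.03%), and within 10000 bp 606 (28.1%). The same shares were not computed for all listed regions, so these counts do not show whether packing is particular to lncRNA genes.

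**Figure D4:**
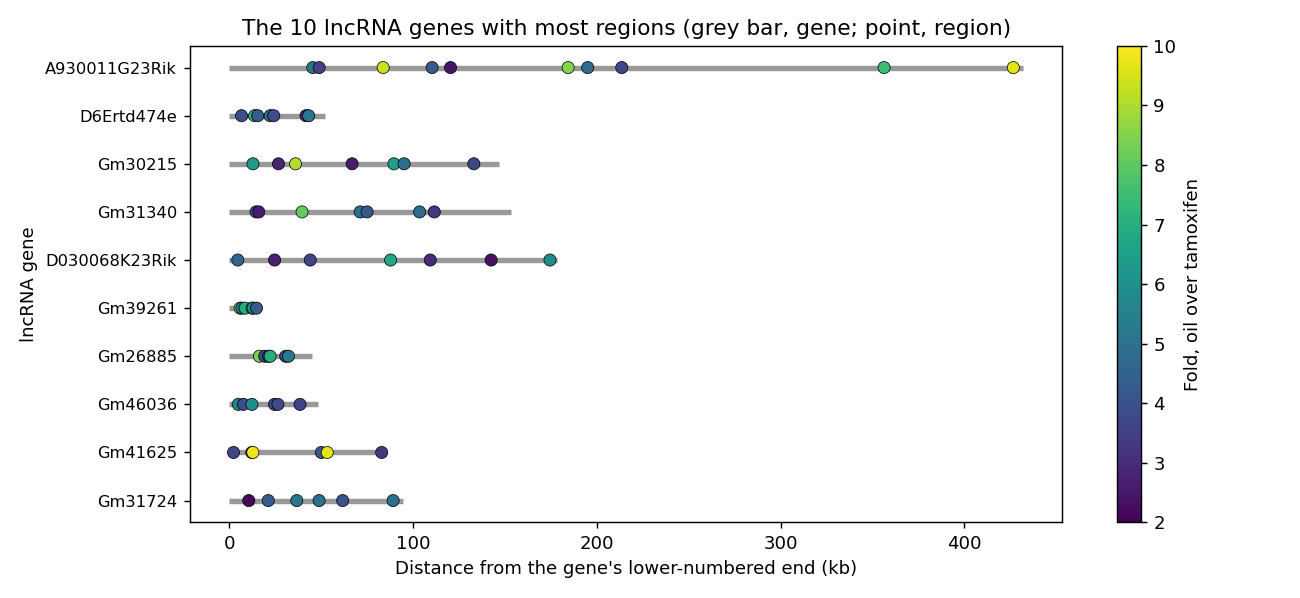
The 10 lncRNA genes with most regions, drawn as grey bars from the gene's lower-numbered end in kb, with each region as a point coloured by its fold. Regions spread along the whole of A930011G23Rik (10 regions) and sit close together in Gm39261 (6 regions in 14.84 kb). Folds vary within each gene, but in some, such as Gm46036 and Gm39261, the counting limits of the lowest and highest region overlap.

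Known lncRNAs were read by lists. Since longer genes carry regions more often, the median eligible length, which was 8.27 kb over all eligible genes, is given beside each share, to be read against the 17.9% above. The 8 lists share genes, such as Meg3, and 42 list genes held 73 regions with folds from 2.10 to 11.9. Imprinted lncRNA genes, expressed from 1 parental allele, carried regions in 3 of 11 (27.3%, median 21.9 kb). Muscle and heart lncRNA genes did in 5 of 13 (38.5%, 14.7 kb), genes tied to proliferation and growth in 5 of 16 (31.3%, 7.19 kb), and developmental and neural genes in 8 of 22 (36.4%, 22.0 kb). By symbol, 4 of 13 microRNA host genes (30.8%, 15.5 kb), 2 of 14 snoRNA host genes (14.3%, 2.21 kb), 6 of 16 pluripotency-associated Platr genes (37.5%, 9.36 kb) and 19 of 99 opposite-strand genes (19.2%, 7.05 kb) carried one.

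Among imprinted genes, Meg3 and Rian belong to the Dlk1-Dio3 domain of chromosome 12, whose noncoding RNAs come from the maternal chromosome. Meg3 had 3 regions. The one at chr12:109560907-109561171, 20.0 kb from the start, had 39 tags in oil and 4 in tamoxifen (fold 9.88, limits 4.61 to 49.3). Those nearer the start had 31 and 12 tags (fold 3.15, limits 1.69 to 7.24) and 60 and 23 tags (fold 3.29, limits 2.08 to 5.80). Their limits overlap those of the region with fold 9.88. Rian, a host of small nucleolar RNAs and microRNAs, had 2, with 71 and 13 tags (fold 6.60) and 32 and 10 tags (fold 3.83). Mirg, the next transcript of the domain, and Dio3os carried none. Snhg14, the antisense transcript across Ube3a, had 2 regions in 1177 kb, with 140 and 40 tags (fold 4.48) and 115 and 65 (fold 2.29). H19, Airn, Nctc1, Igf2os, Ipw and A330076H08Rik had none. A list without a region at a gene does not say whether it was unmethylated, alike in both libraries or thinly covered. Here and for the genes below, only regions more than 2000 bp from protein-coding genes were counted. A gene said to have none can therefore hold a listed region inside or close to a protein-coding gene.

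Nuclear and growth-related lncRNAs differed in whether they carried a region, while the counting limits of the regions named here overlap. Neat1, the scaffold RNA of paraspeckles, had 1 region at chr19:5829629-5830143 with 66 tags in oil and 8 in tamoxifen (fold 9.44, limits 5.18 to 26.1), above 97.3% of all regions. Its neighbour Malat1 had none. Morrbid, known as a regulator of Bcl2l11, had 38 and 3 tags at chr2:128392059-128392394 (fold 11.9, limits 5.27 to 84.1). A second Morrbid region had 48 and 16 (fold 3.71, limits 2.19 to 7.42). Lncpint, which is induced by p53, had 2 regions close together with 58 and 10 tags (fold 6.84) and 41 and 10 (fold 4.87). Pvt1, beside Myc, had 3, with folds of 4.796 (55 and 14 tags), 4.71 (72 and 19) and 6.08 (19 and 3, not past a q limit of 1e-10). Dleu2, which holds Mir16-1, had 100 and 24 tags (fold 5.23). None was found in Tug1, Norad, Trp53cor1, Oip5os1, Chaserr, Dancr or Zfas1.

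Of the muscle and heart list, the 5 genes with a region were Meg3, Neat1, Lncpint, Miat and Hand2os1. Hand2os1, beside the heart transcription factor gene Hand2, had 47 and 15 tags (fold 3.86), and Miat 35 and 5 (fold 7.48). Mir1a-1hg, the host of the muscle microRNA miR-1a-1, had 34 tags in oil and 7 in tamoxifen at chr2:180392256-180392473 (fold 5.52, limits 2.78 to 17.0), 6.76 kb from its start. Dubr, Myhas, Chaer1, Fendrr, Bvht and Carmn carried none. Nor did Lincmd1, a muscle transcript that holds Mir206 and Mir133b, which was in no list and is named after its values were seen.

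Developmental lncRNAs often run beside transcription factor genes. Nkx2-2os had 47 and 4 tags at chr2:147280452-147280797 (fold 11.9, limits 5.63 to 58.9), but that region was closer to Pax1 than to Nkx2-2. Its other region had 48 and 15 tags (fold 3.94). Sox2ot, the transcript around Sox2, had 71 and 10 tags (fold 8.35) and 88 and 21 (fold 5.23). Otx2os1 had 4 regions with folds from 4.36 to 6.995, and Pantr1 2 with folds of 4.37 and 6.82. Tunar (folds 3.80 and 3.37), Hoxa11os (3.62) and Pax6os1 (6.10) completed the 8 genes of the list, together with Miat. Hotair, Hottip, Rmst, Dlx6os1, Six3os1 and 9 further genes had none.

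Opposite-strand genes are named for a coding gene they overlap or face. Tbx3os1, which starts next to Tbx3, had 5 regions, from 80 and 10 tags at 8.70 kb from its start (fold 9.39, limits 5.42 to 22.7) to 34 and 15 (fold 2.81). Scpep1os had 3 regions with folds of 8.36 (103 against 15 tags, limits 5.21 to 16.7), 6.84 and 5.74. Banf2os had 5 with folds from 2.10 to 6.48, and Hnf1aos1 2, the better covered with 159 and 52 tags (fold 3.94). Single regions lay in Zfp652os (23 against 3 tags, fold 7.30), Mkln1os (31 against 5, fold 6.65) and Irx3os (52 against 20, fold 3.26), among others. Of the Platr genes, whose expression marks pluripotent cells, Platr22 had 3 regions (highest fold 6.80, 68 against 12 tags), and Platr29, Platr11, Platr7, Platr20 and Platr8 had 1 each with folds of 6.04, 5.68, 5.20, 4.41 and 3.31.

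**Figure D5:**
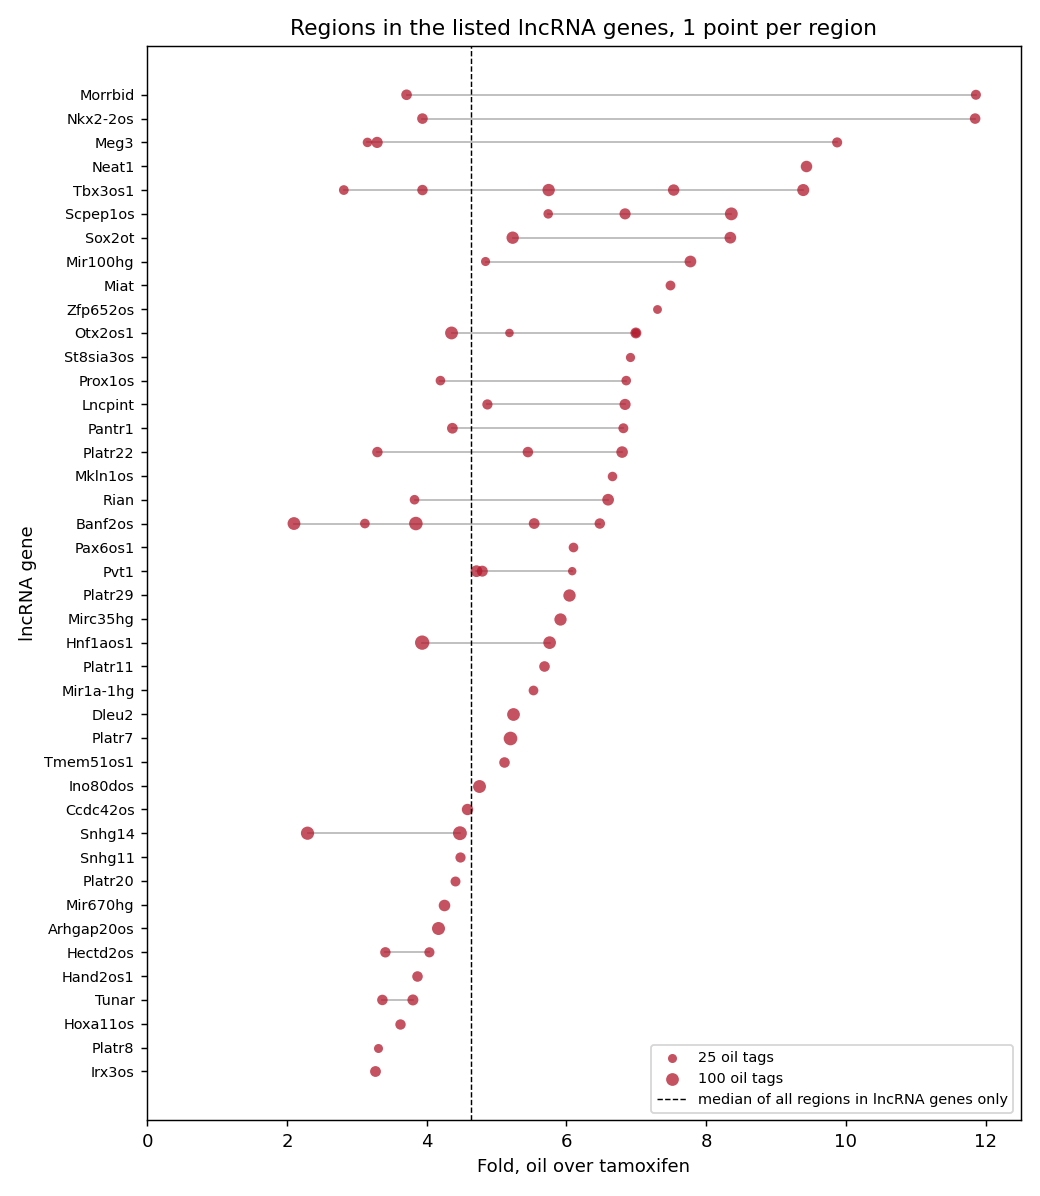
Fold (oil over tamoxifen) of every region in the 42 list genes that carried one, with point area growing with oil tags and a dashed line at the median of the 2155 regions, 4.63. Folds within 1 gene ranged from 3.15 to 9.88 in Meg3 and from 3.71 to 11.9 in Morrbid. In both genes the counting limits of the lowest and highest region overlap.

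Some lncRNA genes are primary transcripts of microRNAs, which silence messenger RNAs through a seed of bases 2 to 8. In sequence more than 2000 bp from protein-coding genes, 57 lncRNA genes held 89 RefSeq hairpins, and 20 of these genes (35.1%) carried a region, beside 17.9% of all eligible genes. These hosts were longer, with a median of 21.1 kb of eligible sequence against 8.27 kb. Only 1 hairpin was overlapped by a region, that of Mir101a in E130102H24Rik, and 1 more, Mir370 in Rian, lay within 1000 bp. Their mature sequences from RefSeq (GRCm38.p6) are shown with the seed in capitals, because these are the small RNAs whose DNA lay at or beside a region.
mmu-miR-101a-5p, chr4:101346993-101347014, minus strand: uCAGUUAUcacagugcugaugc
mmu-miR-101a-3p, chr4:101346957-101346977, minus strand: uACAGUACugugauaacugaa
mmu-miR-370-5p, chr12:109618270-109618289, plus strand: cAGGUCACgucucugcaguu
mmu-miR-370-3p, chr12:109618305-109618326, plus strand: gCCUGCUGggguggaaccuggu
The 4 seeds differ from each other. The region at Mir101a, chr4:101346983-101347234, covers the whole 5p arm and does not reach the 3p arm. Its tags went from 27 in oil to 5 in tamoxifen (fold 5.82, limits 2.69 to 23.5). The start of the same host gene, shown above, was CpG-rich and carried no region. The Rian region at chr12:109617796-109618051 ended 207 bp before the Mir370 hairpin and had 71 and 13 tags (fold 6.60, limits 3.93 to 14.1).

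Other microRNA hosts had regions farther from their hairpins. Mirc35hg, the host of the sensory-organ microRNAs Mir182, Mir96 and Mir183, had 86 and 18 tags at chr6:30159243-30159651 (fold 5.91, limits 3.74 to 11.1), 6267 bp from the nearest hairpin. Dleu2's region lay 1354 bp from Mir16-1. Mir100hg, which holds Mir100, Mirlet7a-2 and Mir125b-1, had 72 and 11 tags (fold 7.78, limits 4.52 to 18.0) and 26 and 6 tags (fold 4.84, not past a q limit of 1e-10), and the nearest hairpin was 24610 bp away. Mir670hg had 68 and 20 tags (fold 4.25). Mir17hg, Mir22hg, Mir155hg and Mir205hg carried no region.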

How the data were processed

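DNA of cultured mouse satellite cells, read here as the MBD2-captured part, was compared between 1 oil and 1 tamoxifen library. The submitters' processing notes name Trim Galore, HISAT2 and mm10. The authors called regions with MACS 2.2.6, oil as treatment and tamoxifen as control, a q cutoff of 1e-04, at most 1 tag per position, 201 bp extension and the larger library scaled to the smaller, per the file headers. The libraries had 35216008 oil and 36519772 tamoxifen tags before duplicate removal. The deposited pileup is a signal value (oil tags over the summit), and the deposited fold enrichment is a ratio. The authors' -log10 p and q columns had lost their headings and were read by their place.

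Tamoxifen tags were recovered as (pileup + 1) / fold - 1, divided by the library factor of 0.763. They were whole within 0.02 tags in 2105 of the 2155 regions (97.7%), and the other 50 equalled the genome mean of 2.10 scaled tags. Placement used RefSeq genes of GRCm38.p6, whose chromosomes are those of mm10. Strand and starts came from RefSeq promoter windows. Exons were not used here. Placement and tag recovery were tested on simulated data. Scripts used Python 3.11.15, numpy 2.4.6, pandas 2.3.3 and scipy 1.17.1.

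The rule named the 10 highest resolved folds, the 5 regions of most oil tags, the 5 longest, the 3 lowest folds, the 10 genes with most regions, the 5 densest of those with 3 or more, and list genes. Regions, lists and rules were chosen with earlier results of these data known. The comparison of promoter windows was added after seeing the data.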

Additional observations from a re-analysis of the deposited data

How the results depend on the processing

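Distance from protein-coding genes, placement by the whole region, joining of near regions and leaving out A930011G23Rik left the medians and counts within their limits or within 1.5 times, except that a margin of 10000 bp gave 12.1 regions per Mb. With curated lncRNA genes alone, 719 regions in 486 genes were left, since fewer genes were used. At a q limit of 1e-10 the median fold was 4.90, the signal kept 19.1%, the median oil tags 57, the density 11.04 per Mb and the share with a fold of 4 or more 74.7% (69.5% at 1e-06). Without scaling of tamoxifen tags the median fold was 3.60, the signal kept 26.2% and that share 39.3%. All regions then had the same median fold of 3.60. With nothing added to the tags the median was 5.01 and the share 72.8%. The share of lncRNA promoter windows with a region was 1.43% for overlaps of 100 bp or more, 1.80% for regions past 1e-10 and 2.25% with 1 window per gene, all chosen after seeing the data. No paired analysis was possible because each group holds 1 library. Tag depth limits single regions, and folds are biased upward because the summit is where oil was highest.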

Other observations

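The same rule applied to the sex chromosomes gave 18 of 555 listed regions on X (3.24%) and 7 of 95 on Y (7.37%). Firre, an X-linked lncRNA gene that organises chromatin, had a region with 52 oil and 4 tamoxifen tags (fold 13.1) and another with 36 and 9 (fold 4.71). Xist, whose RNA coats the inactive X chromosome, had 171 and 80 tags over X:103482466-103482851 (fold 2.77). Platr21 had 2 regions, with 104 and 23 tags (fold 5.66) and 46 and 11 (fold 5.01). On Y, 6 of the 7 regions lay in Gm33272, with 61 to 199 oil tags and folds from 2.00 to 3.60. The median fold was 5.07 on X and 2.70 on Y.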
